A study of Mus musculus with 6 samples.

Results

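Transcripts of the IL-4 and IL-13 receptor chains and of genes that STAT6 switches on were followed in 4T1 cells that had been cultured with pro-inflammatory (PI) or anti-inflammatory (AI) macrophages. The set holds 10 genes of the 23385 tested. The receptor chains are Il4ra, Il13ra1, Il13ra2 and Il2rg, and the target genes are Cish, Socs2, Ccl11, Ch25h, Alox15 and Tgm2. Each gene was found by its symbol in the deposited table and is represented by the transcript cluster, the unit the array reports per gene, that carries only that symbol and has the highest mean over the 6 arrays. The question was whether tumour cells from the AI co-culture carry transcripts of an IL-4 type response.

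4T1 is a mouse mammary carcinoma line, labelled as lacking oestrogen receptor, progesterone receptor and HER2. The PI group (3 arrays) had been cultured for 24 h with bone marrow-derived macrophages polarised beforehand to the PI state, and the AI group (3 arrays) for the same time with macrophages polarised to the AI state, all in DMEM with serum. Each replicate used macrophages of another mouse, while the tumour cells were 1 line throughout. Macrophages were then held back on a column through CD11b-coupled beads, and RNA of the tumour cells that flowed through was hybridised. The labels do not name the polarising agents, the mouse strain or the mouse age. Arrays of 4T1 cells without macrophages were not analysed here, so a difference between PI and AI does not say which co-culture moved a gene.

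IL-4 and IL-13 are cytokines of type 2 immunity. IL-4 binds the chain encoded by Il4ra. That chain pairs mainly with the common gamma chain (Il2rg) on blood cells. On most other cells, epithelial and tumour cells included, it pairs with the IL-13 receptor chain Il13ra1. JAK kinases on these chains then phosphorylate STAT6, which enters the nucleus and binds paired TTC and GAA letters in promoters and enhancers. In macrophages the pathway drives alternative activation, and in epithelium it drives mucus and chemokine genes.

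None of the 10 passed the test of PI against AI at an adjusted p of 0.05 (limma; 0 higher, 0 lower). Over all genes tested, 17 passed, or 0.0727%, all of them higher in PI, and 0% were lower in PI. At an unadjusted p under 0.05, limma gave 1 of the 10, Ccl11, against 7.36% of all genes (4.05% higher and 3.31% lower in PI). The same shares belong beside each count at an unadjusted p under 0.05 given below. The count of 0 was the same without moderation of the variances and with an intensity trend and robust variance. The 10 differences, PI minus AI on the log2 scale, ran from -0.20 (Il2rg) to 0.37 (Ccl11) with a median of 0.03, beside a median of -0.01 over all genes. A gene higher in AI has a negative difference here, and 4 of the 10 were negative, against 52.7% of all genes. Among the 6 target genes the negative count was 1, Cish. Transcript levels of a cell fraction do not tell fewer expressing cells from less RNA per cell.

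**Figure D1:**
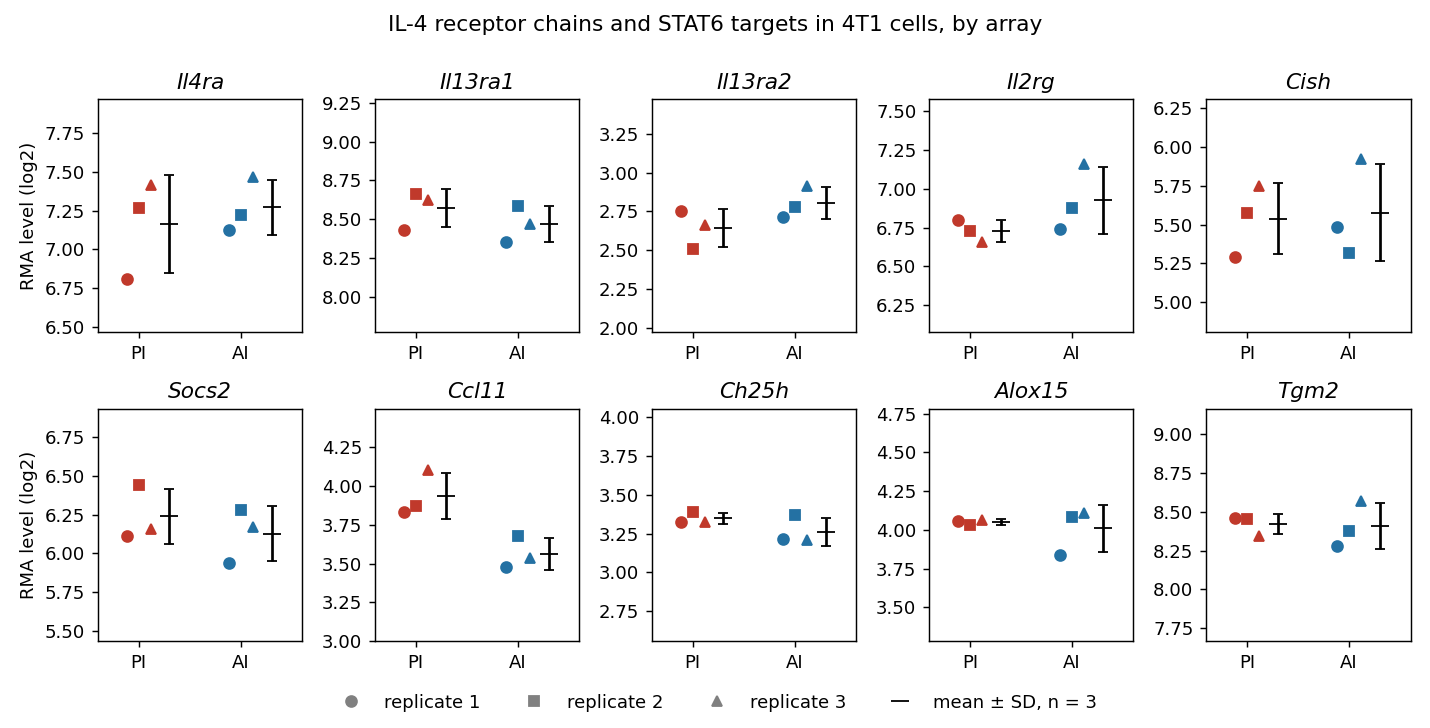
RMA levels (log2, vertical axis) of the 10 genes in the PI and AI arrays; marker shapes give the replicate number and black marks the mean ± SD (n = 3 each). Every panel spans the same height in log2 units, and the PI and AI arrays overlap in all panels except Ccl11, where the 3 PI arrays lie above the 3 AI arrays.

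Whether a gene had a signal above that of genes these cells should not use was read from olfactory and vomeronasal receptor genes. These are receptors of sensory neurons, and 1375 of them were on the array. Their median level was 2.78 and their 95th percentile 4.56 on the log2 scale. A mean level under that percentile is called inside the range of unused genes, as was the case for 48.4% of all genes tested. Probe sets differ in how signal relates to transcript amount, so the range is only a rough guide and sets no order between genes. By this measure 6 of the 10 genes lay above the range, namely Il4ra, Il13ra1, Il2rg, Cish, Socs2 and Tgm2. The 4 genes inside it were the decoy receptor Il13ra2 and the targets Ccl11, Ch25h and Alox15.

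**Figure D2:**
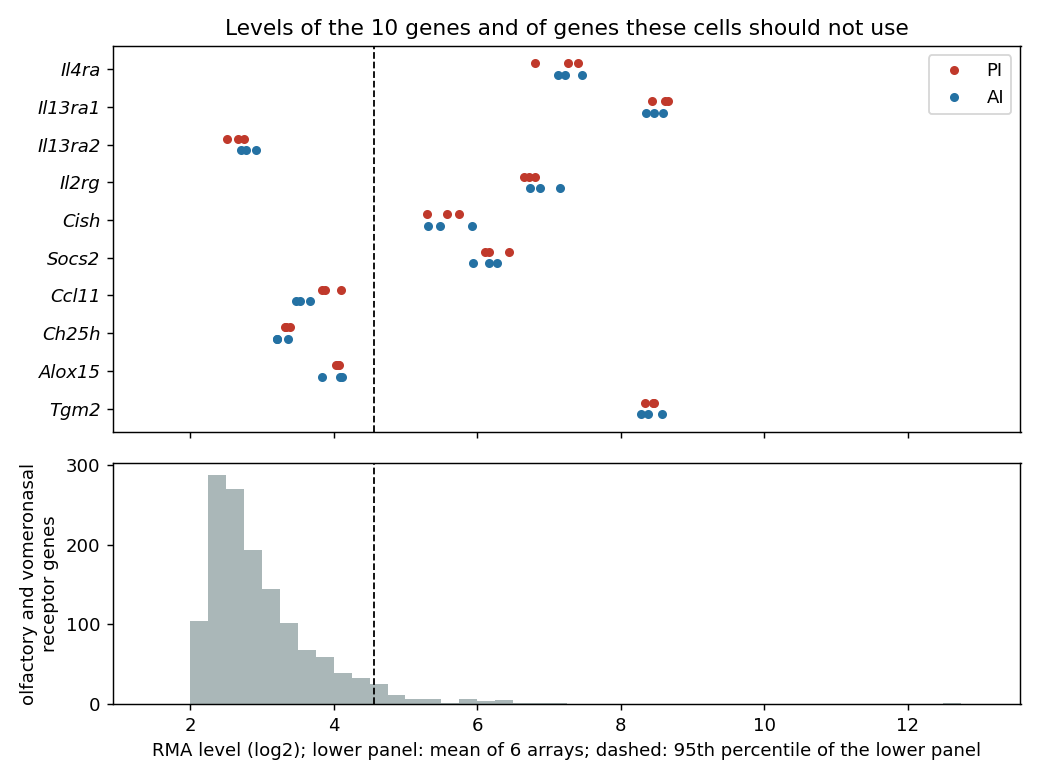
RMA levels (log2) of the 10 genes in each PI and AI array (upper panel) above the mean levels of 1375 olfactory and vomeronasal receptor genes (lower panel, number of genes). The dashed line is the 95th percentile of the lower panel at 4.56, which 6 of the 10 genes exceed in every array.

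Il4ra encodes the IL-4 receptor alpha chain, the ligand-binding chain of both receptor types (transcript cluster 17482943, Entrez 16190). Its level was 6.81, 7.27 and 7.41 in the PI arrays, against 7.12, 7.22 and 7.47 in the AI arrays. PI replicate 1 was the lowest array, and the groups overlapped. The difference was -0.11 (95% interval -0.50 to 0.28, limma adjusted p = 0.910), so the interval reached a level 1.41-fold higher in AI. Without PI replicate 1 the difference was 0.07.

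Il13ra1 encodes the chain that pairs with Il4ra in the receptor for both IL-4 and IL-13 (cluster 17534051, Entrez 16164). It measured 8.43, 8.66 and 8.62 in the PI arrays and 8.35, 8.59 and 8.47 in the AI arrays, which overlapped. The difference was 0.10 (95% interval -0.13 to 0.34, limma adjusted p = 0.849). Together with Il4ra, it shows signal for both chains of that receptor in PI and AI arrays alike. The part of residual macrophage RNA in these signals was not tested.

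Il2rg encodes the common gamma chain, shared by several cytokine receptors of lymphocytes (cluster 17543572, Entrez 16186). Its level was 6.80, 6.73 and 6.66 in the PI arrays, against 6.74, 6.87 and 7.16 in the AI arrays. AI replicate 3 stood highest and AI replicate 1 lay within the PI values. The difference of -0.20 was the most negative of the 10 (95% interval -0.47 to 0.08, limma adjusted p = 0.757). It was -0.08 without AI replicate 3.

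Il2rg is also a gene of haematopoietic cells, and the macrophages of the co-culture are such cells. The macrophage markers Itgam (the CD11b chain), Adgre1, Csf1r, Ptprc and Lyz2 had mean levels inside the range of unused genes, with differences of 0.01, 0.00, -0.10, -0.21 and 0.19. Cd68 lay above that range, with levels of 7.51 in PI and 7.48 in AI. Of 25 macrophage markers, 19 lay inside the range and 0 passed the test. At an unadjusted p under 0.05, Mpeg1 had a difference of 0.58, while Cd14 (-0.23), Spi1 (-0.21) and Itgb2 (-0.20) had the same sign as Il2rg, all 4 named after their values were seen. The log2 levels of the 25 markers summed to 109.1 to 111.0 in the PI arrays and 108.7 to 109.6 in the AI arrays. Such a sum, mostly over genes inside the range of unused genes, is not an amount of macrophage RNA. The part of residual macrophage RNA in the Il2rg signal was not tested.

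Il13ra2 encodes a decoy that binds IL-13 and carries almost no signalling tail, and it is itself a known STAT6 target in other cells (cluster 17545181, Entrez 16165). It measured 2.75, 2.51 and 2.66 in the PI arrays and 2.71, 2.78 and 2.92 in the AI arrays. All 6 values lay inside the range of unused genes, and all except AI replicate 3 lay below the median level of those genes. The difference was -0.16 (95% interval -0.39 to 0.07, limma adjusted p = 0.761).

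Of the target genes, Cish encodes a SOCS family protein that dampens cytokine signalling and responds to STAT5 as well as STAT6 (cluster 17530881, Entrez 12700). It was the only one of the 10 whose promoter held a STAT-type motif, among the 6 with a promoter in the RefSeq table used (build GRCm38.p6, 250 bases before to 50 bases after the start). The motifs searched were TTCNNNGAA, the spacing most STAT proteins bind, and TTCNNNNGAA, the spacing STAT6 favours. Both read the same on either strand, and overlapping matches were counted. TTCNNNGAA occurred in 8.30% and TTCNNNNGAA in 6.95% of 32851 mouse promoters. The Cish promoter (chr9:107296409-107296708, plus strand) had 2 matches to TTCNNNGAA, starting at bases 251 and 262, and 0 to the longer spacing. These 2 matches lie past the 250 bases before the start, so they are not upstream of it. For comparison, the promoter of Ccl17, a chemokine gene that IL-4 induces in macrophages (chr8:94810203-94810502, plus strand), had 1 match to each spacing. Of 62 other pathway genes with a promoter, 11 had a match to TTCNNNGAA and 8 to TTCNNNNGAA. Only Ccl17 and Il4 had both, so Ccl17 is not typical of them. Some of these genes have several promoters, so the counts are not set against the shares of promoters. The Cish and Ccl17 promoters are shown with matches in capitals, and a match is not evidence of binding.
Cish: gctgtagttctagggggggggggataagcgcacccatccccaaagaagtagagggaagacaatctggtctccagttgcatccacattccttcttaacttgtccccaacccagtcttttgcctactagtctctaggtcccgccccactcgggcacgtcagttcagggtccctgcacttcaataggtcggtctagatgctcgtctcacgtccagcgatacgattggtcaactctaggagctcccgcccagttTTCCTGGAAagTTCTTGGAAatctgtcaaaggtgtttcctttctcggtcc
Ccl17: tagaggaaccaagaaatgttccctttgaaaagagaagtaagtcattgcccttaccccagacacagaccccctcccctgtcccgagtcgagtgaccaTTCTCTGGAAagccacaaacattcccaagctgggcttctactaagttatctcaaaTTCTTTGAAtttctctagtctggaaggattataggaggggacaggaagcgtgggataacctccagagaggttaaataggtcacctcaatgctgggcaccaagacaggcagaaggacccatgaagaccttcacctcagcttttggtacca

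Cish had levels of 5.29, 5.58 and 5.75 in the PI arrays, against 5.49, 5.32 and 5.92 in the AI arrays. The lowest value was a PI array and the highest an AI array, with the rest mixed. The difference was -0.04 (95% interval -0.45 to 0.38, limma adjusted p = 0.981), the widest interval of the 10. It was 0.14 without AI replicate 3 and 0.09 without PI replicate 1. A second Cish cluster, at a lower signal, gave 0.08. Ccl17, chosen after its values were seen, measured 3.04, 3.16 and 3.33 in the PI arrays and 2.99, 3.28 and 3.04 in the AI arrays, with a difference of 0.07.

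Socs2 encodes a related SOCS protein, best known as a brake on growth hormone signalling (cluster 17274184, Entrez 216233). It measured 6.11, 6.44 and 6.16 in the PI arrays, against 5.93, 6.28 and 6.17 in the AI arrays, which overlapped. The difference was 0.11 (95% interval -0.18 to 0.41, limma adjusted p = 0.871). It was 0.0099 without PI replicate 2, 0.016 without AI replicate 1 and 0.19 without AI replicate 2. The second Socs2 cluster gave 0.00.

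Ccl11 encodes eotaxin, which attracts eosinophils through CCR3 and is induced by IL-4 and IL-13 in fibroblasts and epithelium (cluster 17254053, Entrez 20292). Its level was 3.83, 3.87 and 4.10 in the PI arrays, against 3.48, 3.68 and 3.53 in the AI arrays. It was the 1 gene of the 10 whose groups did not overlap, with PI above AI, a pattern that 5.85% of all genes had, with another 7.32% showing PI below AI and 13.2% either. The difference was 0.37 (95% interval 0.13 to 0.61), a 1.30-fold higher level in PI, and it did not pass the test (limma adjusted p = 0.534, unadjusted p = 0.00737, place 322 among all genes by p). The signal lay inside the range of unused genes in all 6 arrays.

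Ch25h encodes cholesterol 25-hydroxylase, which makes an oxysterol that acts on immune cells and is also known as an interferon-induced gene (cluster 17364111, Entrez 12642). It measured 3.33, 3.39 and 3.33 in the PI arrays and 3.21, 3.37 and 3.21 in the AI arrays, with a difference of 0.09 (95% interval -0.10 to 0.28, limma adjusted p = 0.848). A second Ch25h cluster had the opposite sign, at -0.10. Signal of neither cluster rose above the range of unused genes.

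Alox15 encodes the lipoxygenase that is among the most strongly IL-4-induced genes of monocytes and airway epithelium in humans (cluster 17265229, Entrez 11687). Its level was 4.06, 4.03 and 4.07 in the PI arrays, against 3.84, 4.08 and 4.11 in the AI arrays, so the PI values lay between the lowest and the highest AI array. The difference was 0.04 (95% interval -0.18 to 0.26, limma adjusted p = 0.949), and it changed sign, at sizes under 0.01, when arrays were centred on their medians or quantile normalised.

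Tgm2 encodes tissue transglutaminase, which cross-links matrix proteins and marks alternatively activated macrophages (cluster 17393789, Entrez 21817). It measured 8.46, 8.45 and 8.34 in the PI arrays and 8.28, 8.38 and 8.57 in the AI arrays, and the groups overlapped fully. The difference was 0.01 (95% interval -0.22 to 0.24, limma adjusted p = 0.992) and turned to -0.03 when arrays were centred. For Tgm2, the target with the narrowest interval among those above the range of unused genes, the interval reached a level 1.16-fold higher in AI.

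**Figure D3:**
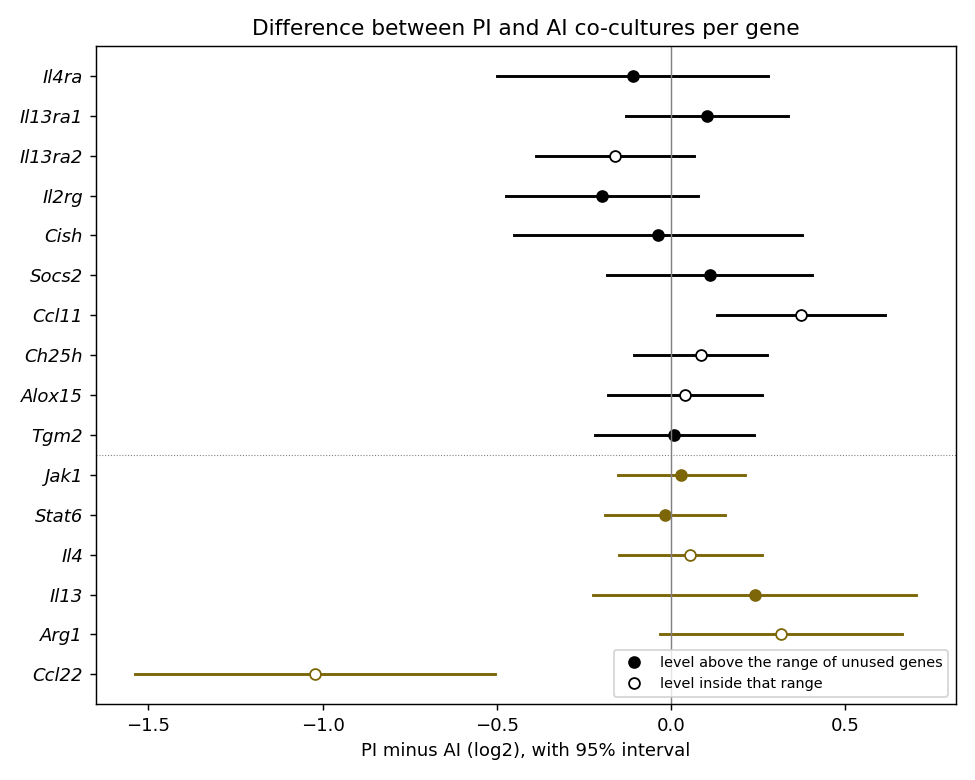
PI minus AI differences (log2, horizontal axis) with 95% intervals from limma for the 10 genes, above the dotted line, and for other genes of the pathway below it. Filled points have a mean level above the range of unused genes; among the 10, only the Ccl11 interval leaves out 0, and Ccl22 has an interval from -1.54 to -0.50.

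The differences were mostly small beside the spread between arrays of a group. For 9 of the 10 genes the difference was smaller than the range over the 3 arrays of at least 1 group, and for 6 it was smaller than the range of both. The share of all genes meeting these conditions was not computed, so the counts of 9 and 6 show nothing particular to the 10. AI replicate 3 had the highest level of all arrays for 6 of the 10 genes (Il4ra, Il13ra2, Il2rg, Cish, Alox15 and Tgm2), whereas it was highest for 17.0% of all genes. AI replicate 1 was lowest for 5 of the 10 (Il13ra1, Socs2, Ccl11, Alox15 and Tgm2), against 13.9% of all genes. This count was made after the values were seen and has no test. Across the 6 genes above the range of unused genes, the largest AI-side fold that any interval still held was 1.41 (Il4ra). The largest PI-side fold among them was 1.32 (Socs2). Ccl11, inside that range, reached 1.53 on the PI side. Each interval covers a single gene, so these values set no joint limit for the genes.

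In the authors' deposited table the q-values of the 10 clusters ran from 0.722 (Ccl11) to 0.992 (Tgm2). The fold column of the authors' deposited table is AI over PI, and it held 0.772 for Ccl11 and 1.15 for Il2rg.

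Upstream of the targets, the ligands, kinases, STAT6 and inhibitors of the pathway were also compared. Of 16 measured genes, 0 passed in either direction in limma (unadjusted p under 0.05: 1, lower in PI), 8 were negative and the median difference was 0.00. Stat6, the transcription factor itself, had levels of 8.79 ± 0.05 in PI and 8.81 ± 0.02 in AI (SD, n = 3 each), a difference of -0.02 (95% interval -0.19 to 0.16) that became 0.02 after cyclic loess or quantile normalisation. Jak1, a kinase bound to Il4ra, had 9.14 ± 0.07 in PI and 9.11 ± 0.04 in AI (SD, n = 3 each), a difference of 0.03 that became -0.01 when arrays were centred.

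Il4 had a mean level of 3.25 in PI and 3.19 in AI, inside the range of unused genes. Il13 had 4.87 in PI and 4.63 in AI, just above that range by its mean, with a difference of 0.24 (95% interval -0.22 to 0.70, limma adjusted p = 0.831). AI replicate 1, at 4.22, lay inside the range, and without it the difference was 0.04, against 0.09 without PI replicate 3. The members of this list with the smallest p were 2 SOCS genes with opposite signs. Socs5, described as an inhibitor of IL-4 signalling, had 7.37 ± 0.09 in PI and 7.60 ± 0.05 in AI (SD, n = 3 each; difference -0.23, limma adjusted p = 0.622). Socs1, an inhibitor induced by interferon-gamma and by IL-4, had 7.09 ± 0.15 in PI and 6.87 ± 0.14 in AI (SD, n = 3 each; difference 0.22, limma adjusted p = 0.724).

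Receptor chains of the other common gamma chain cytokines and of TSLP gave 0 calls among 7 genes, of which 5 lay inside the range of unused genes (unadjusted p under 0.05: 1, higher in PI). That gene was Il15ra, the alpha chain that presents IL-15, at 7.24 ± 0.11 in PI and 6.94 ± 0.10 in AI (SD, n = 3 each; difference 0.31, limma adjusted p = 0.584). Il2ra, the alpha chain for IL-2, had a difference of -0.14 inside that range.

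Among 20 STAT6 targets known from macrophages, 0 passed in either direction in limma, and the median was 0.00. At an unadjusted p under 0.05, 1 was higher and 2 were lower in PI, against 4.05% and 3.31% of all genes. The higher gene was Clec10a, named after its value was seen, at a mean level of 2.77 inside the range of unused genes. The lower genes were Ccl22 and Pparg. The most negative difference was that of Ccl22, a chemokine for regulatory and type 2 helper T cells (cluster 17504122, Entrez 20299). Its level was 4.02, 3.82 and 3.91 in the PI arrays, against 4.80, 4.53 and 5.48 in the AI arrays. All AI arrays lay above all PI arrays, AI replicate 3 the highest. The difference of -1.02 (95% interval -1.54 to -0.50) ranked first from the lowest among all 23385 genes, yet it did not pass (limma adjusted p = 0.392) and was -0.75 without AI replicate 3. By its mean over the 6 arrays Ccl22 lay inside the range of unused genes. Of the single arrays, AI replicates 1 and 3 lay above its upper end and the other 4 below.

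**Figure D4:**
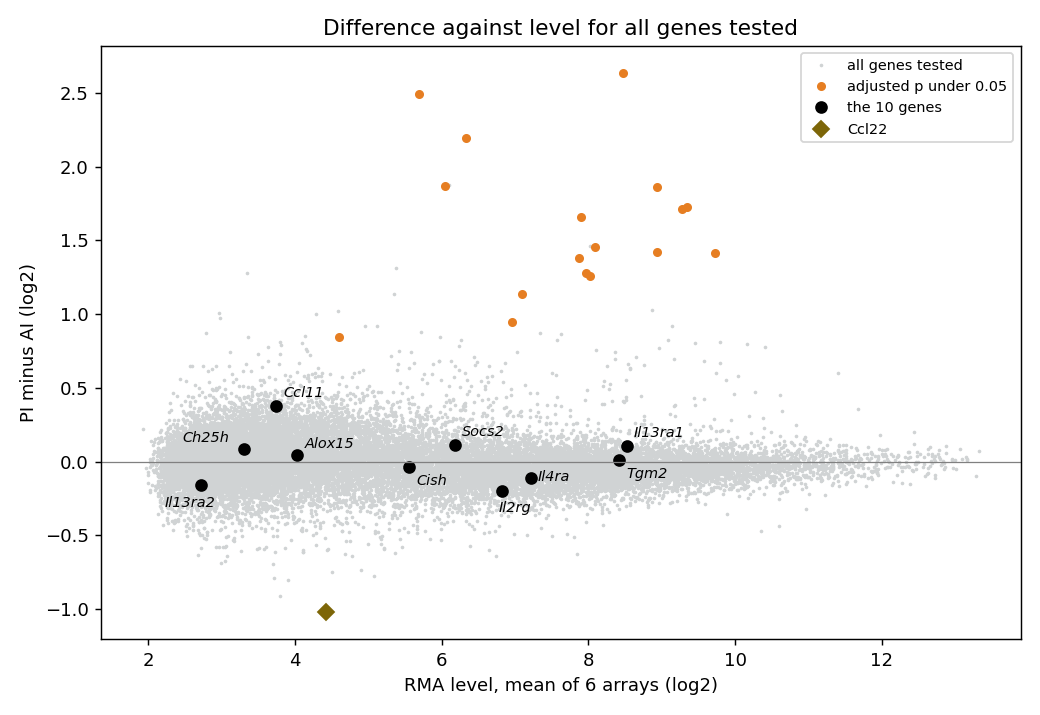
PI minus AI difference (log2, vertical axis) against mean level over the 6 arrays (log2, horizontal axis) for all 23385 genes tested. The 10 genes (black) lie within the cloud of all genes, the 17 genes with an adjusted p under 0.05 (orange) are all higher in PI, and Ccl22 (diamond) has the lowest difference of any gene.

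Of the 20 genes, 2 had all AI arrays above all PI arrays, Ccl22 and Pparg, against 7.32% of all genes, and 10 had negative differences. In 1 of the 20 all PI arrays lay above all AI arrays, against 5.85% of all genes. It was Fn1, named after its value was seen, at 11.44 in PI and 11.36 in AI, above the range of unused genes. Pparg, a lipid-sensing nuclear receptor, measured 3.49, 3.68 and 3.40 in the PI arrays and 3.99, 3.78 and 3.93 in the AI arrays, inside the range of unused genes (difference -0.37, 95% interval -0.61 to -0.13, limma adjusted p = 0.534). Arg1, the arginase of alternatively activated macrophages, had the opposite sign, with 4.61, 4.42 and 4.20 in the PI arrays and 3.83, 4.18 and 4.28 in the AI arrays (difference 0.32, limma adjusted p = 0.699). By its mean Arg1 also lay inside that range, and its groups overlapped. Of 12 markers of alternatively activated macrophages, 11 lay inside the range of unused genes, 6 were negative and 0 passed. The marker above it was Cd209a (7.58 in PI, 7.57 in AI). The log2 levels of the 12 summed to 46.2 to 47.5 in the PI arrays and 45.8 to 49.2 in the AI arrays. Such a sum is not an amount of RNA, and it includes Ccl22 itself. The part of residual macrophage RNA in the Ccl22 signal was not tested.

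IL-13 response genes known from epithelium, such as the mucins, gave 0 calls among 16 measured genes (unadjusted p under 0.05: 1, higher in PI), with 11 inside the range of unused genes and a median difference of 0.00. The smallest p belonged to Cdh26, a cadherin, at 4.15 ± 0.11 in PI and 3.75 ± 0.14 in AI (SD, n = 3 each; difference 0.40, limma adjusted p = 0.471), followed by Pigr, the transporter of secreted antibodies, with a difference of 0.26. Both lay inside the range of unused genes. Of the 16, 8 had negative differences. The 5 genes above that range were Foxa3 (-0.22), Serpinb2 (-0.21), Arg2 (-0.14), Vcam1 (-0.10) and Spdef (0.12). These 5 were named after their values were seen.

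The epithelial markers of the line were present, with 9 of 12 above the range of unused genes. In limma 0 passed, 8 were negative and the median difference was -0.15. At an unadjusted p under 0.05 there was 1, Krt14, a keratin of basal epithelium, with a difference of -0.41. The PI arrays lay below the AI arrays for 3 of the 12, against 7.32% of all genes.

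Other targets of STAT5, which also acts on Cish and Socs2, gave 0 calls among 9 genes (unadjusted p under 0.05: 0), of which 7 lay above the range of unused genes, and a median of -0.05. Bcl2l1, a survival gene, had a difference of 0.17 and Socs1 is given above.

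Ccl11 was the gene of the 10 with the smallest p, and the genes most like it over the 6 arrays were Ddi1 (Pearson r = 0.995), Ppp1r3e (0.984) and Klhl24 (0.981), predicted genes left out. Of 19670 genes compared, 42 had r above 0.95 with Ccl11, and 6 arrays leave such values imprecise. Ddi1 (2.98 in PI, 2.79 in AI) and Ppp1r3e (3.42 in PI, 3.22 in AI) lay inside the range of unused genes, as Ccl11 did. Klhl24 (7.73 in PI, 7.35 in AI) lay above it. None of the 3 passed the test between PI and AI.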

How the data were processed

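The authors deposited 1 log2 value per transcript cluster and array, from 1.33 to 13.89 over 6 arrays, made with Affymetrix Expression Console and RMA, per the submitters' processing notes. RMA background-corrects, normalises the arrays to 1 distribution and summarises probes. Neither a genome build nor an annotation release is stated in the labels. The 2 deposited tables held identical values, with 0 differing. The authors' p-value and q-value columns are named in the deposited table, per the file headers, and the test behind them is not stated. The deposited fold column is a ratio of AI over PI for all 41345 clusters, within 0.0001.

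From 24724 clusters with 1 gene symbol, updated through Entrez identifiers with RefSeq (GRCm38.p6, 23652 identifiers matched), the cluster with the highest mean per gene was taken, giving 23385 genes. The PI and AI arrays were compared with limma 3.58.1 (R 4.3.3, lmFit and eBayes, group as the only term, two-sided, Benjamini-Hochberg over all genes, threshold 0.05), with no filter on dim genes, and the code was tested on simulated data. Python 3.11.15, numpy 2.4.6, pandas 2.3.3 and matplotlib 3.10.9 prepared tables and figures. The number of arrays limits the precision. Members, lists and the naming rule were chosen with earlier results of these data known. The rule named the 10 genes, Stat6, Jak1, Il4, Il13, Arg1, 6 macrophage markers, from each of 6 pathway lists up to 4 genes past the threshold or otherwise the 2 of smallest p, and the 3 genes most like the member of smallest p.

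Replicate numbers are shared between groups, but the labels do not say that a number marks a shared mouse.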

Additional observations from a re-analysis of the deposited data

How the results depend on the processing

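None of the 10 genes and none of 87 other pathway genes passed in any of 16 other settings that tested them, including each array left out in turn. With genes above the median level only, 6 of the 10 were tested. The smallest adjusted p of Ccl11 over all settings was 0.477 and the largest 0.716, with differences of 0.29 to 0.43. For Ccl22 the adjusted p ran from 0.100, with an intensity trend and robust variance, to 0.678. The count of all genes past the threshold, 17, was 8 with all clusters tested, 42 among genes above the median level, 76 with an intensity trend and robust variance, 2 (Rpl8 and H2-Ke6, both lower in PI) without moderation, and 1 (Gm4841, higher) with the replicate number as a block. It was 1 to 14 without single arrays, with 1 when PI replicate 2 was left out, 4 for PI replicate 3, and 7 each for AI replicates 1 and 3. The cause of these shifts in the count was not tested. Array deviations of equal replicate numbers correlated at 0.041, 0.006 and 0.057, and those of unequal numbers at -0.075 to 0.038. These values do not decide whether a number marks a shared mouse. The numbers were not taken as pairs because the labels do not state a pairing. The block changed no call among the 10, with Ccl11 at an adjusted p of 0.633.

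Of 540 recomputed differences of the 35 named genes, 509 kept their sign and 31 did not, all of them in 10 genes with small differences. Centring the arrays, which moved the median of all genes to -0.05, gave -0.00063 for Alox15, -0.033 for Tgm2, -0.012 for Jak1, -0.029 for Itgam, -0.039 for Adgre1 and -0.0093 for Cd68. Quantile normalisation gave -0.0030 for Alox15, 0.018 for Stat6 and -0.035 for Adgre1, and cyclic loess gave 0.023 for Stat6 and -0.029 for Adgre1. The mean of a gene's clusters gave 0.023 for Cish and -0.0059 for Ch25h. Without single arrays the ranges were -0.23 to 0.067 for Il4ra, -0.17 to 0.14 for Cish, -0.045 to 0.092 for Alox15, -0.055 to 0.090 for Tgm2, -0.040 to 0.010 for Stat6, -0.0059 to 0.064 for Jak1, -0.045 to 0.090 for Itgam, -0.26 to 0.15 for Adgre1 and -0.014 to 0.068 for Cd68. Those of genes that kept their sign were 0.046 to 0.17 for Il13ra1, -0.22 to -0.094 for Il13ra2, -0.29 to -0.080 for Il2rg, 0.0099 to 0.19 for Socs2, 0.057 to 0.14 for Ch25h and 0.037 to 0.36 for Il13. With olfactory receptor genes alone as unused genes, the count above the range was again 6. The series matrix table gave the same values.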

Other observations

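Relatives and partners of the target genes were measured beside them, and 0 of 22 passed in either direction in limma (unadjusted p under 0.05: 1, lower in PI), with a median difference of 0.01. Among chemokine relatives of Ccl11, Ccl8 had 4.11 ± 0.13 in PI and 4.36 ± 0.15 in AI (SD, n = 3 each), a difference of -0.25 inside the range of unused genes (limma adjusted p = 0.677). Gpr183, the receptor for oxysterols made downstream of Ch25h, had 4.55 ± 0.17 in PI and 4.30 ± 0.19 in AI (SD, n = 3 each), a difference of 0.25 (limma adjusted p = 0.724). By its mean Gpr183 also lay inside that range. Of the 22, 13 lay inside the range of unused genes.

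Markers of other cell types were measured as well. Those of T, B and NK cells gave 0 calls among 10 genes, all 10 inside the range of unused genes, those of granulocytes and mast cells 0 among 11, with 9 inside, and those of fibroblasts 0 among 8, with 4 inside (limma; unadjusted p under 0.05: 1 gene in all, the calgranulin S100a8, with a difference of 0.45).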
